A study of Homo sapiens with 18 samples.

Results

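A set of 10 genes of the death receptor pathway was followed by RNA sequencing in KBM7 cells, an established human line from a chronic myelogenous leukaemia: the TRAIL receptor genes TNFRSF10A, TNFRSF10B, TNFRSF10C and TNFRSF10D, the receptor genes FAS, EDA2R and TNFRSF1A, the ligand gene TNFSF10, and the genes CFLAR and FADD, whose products act directly below the receptors. They were chosen by function, and all 10 were matched by symbol among the 57447 gene identifiers of the tables that GENCODE 29 also lists. The series holds 18 libraries in 6 groups of 3, each group harvested after 5 h. One group received the solvent DMSO, 4 groups received dCeMM-1, dCeMM-2, dCeMM-3 or dCeMM-4 at 10 times the EC50 of the compound, and 1 group received THZ531 at 600 nM. As background, dCeMM-1 is known to trigger loss of RBM39, a splicing factor. The other dCeMM compounds are known to trigger loss of cyclin K. THZ531 blocks CDK12 and CDK13, the kinase partners of cyclin K, and binds them covalently. All groups are the same line, and the labels name no other drug or genetic change. The labels do not say whether a group is 3 separate cultures, so each p-value measures the spread between these libraries, which may be technical.

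Death receptors are members of the TNF receptor superfamily that carry an intracellular death domain. When TRAIL (the product of TNFSF10) binds TNFRSF10A or TNFRSF10B, or FAS ligand binds FAS, the adaptor FADD joins the receptor tail and recruits the initiator caspases CASP8 and CASP10, and CFLAR (c-FLIP) limits their activation. TNFRSF10C and TNFRSF10D bind TRAIL but lack a working death domain and are known as decoy receptors. TNFRSF1A, the main receptor for tumour necrosis factor, signals first through TRADD and RIPK1 and reaches FADD later. EDA2R binds a form of ectodysplasin A, has no death domain, and is known, like TNFRSF10B and FAS, as a target gene of p53.

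Values are given on 2 scales. Levels in CPM (counts scaled to a fixed library total) and fold changes are scaled by TMM, which sets each gene against the bulk of the other genes in a library. The spike-in scale sets each gene against synthetic ERCC and SIRV RNA added to the samples. Spike-in RNA took 0.179% ± 0.0200 (SD, n = 3) of the counts in DMSO. Its share was 2.86, 3.02 and 2.96 times as large with dCeMM-2, dCeMM-3 and THZ531 (exact permutation p = 0.1 each, two-sided, the smallest possible with 3 libraries against 3), 1.31 times with dCeMM-4 (exact p = 0.2) and 0.985 times with dCeMM-1 (exact p = 1). Relative to TMM, the spike-in scale therefore moved the median difference over all genes, in log2 units, by -1.78, -1.81, -1.84, -0.56 and 0.070, in the same order. In these bulk samples, fewer cells and less RNA per cell cannot be told apart. Gene counts per library ran from 4598576 in DMSO replicate 3 to 17943571, with at least 8404212 in each of the others. All 10 marker genes of the myeloid line were at or above 1 CPM in DMSO, and their summed level ran from 2059 to 2181 CPM in DMSO and from 1003 to 1086 CPM with THZ531. HBB, HBA2 and ALAS2, markers of mature red cells, had no count in any library. HBA1, the other red cell marker, had none in 16 of the 18 libraries and reached at most 0.088 CPM. Of the 4 T cell markers, CD3D and CD3E were detected and summed to between 63.4 and 69.0 CPM in DMSO and between 137 and 151 CPM with THZ531, while CD3G and CD247 had no count in 13 and 12 of the 18 libraries. Markers listed for epithelial, endothelial and B cells were also found in DMSO. KRT18 stood at 50.2, PECAM1 at 39.7, PAX5 at 22.6, KRT8 at 14.6 and CD79A at 2.70 CPM. The other markers of these cell types, and those of fibroblasts and hepatocytes, were below 1 CPM in DMSO. The part of these markers in the results was not tested.

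In DMSO the ligand was the most abundant of the genes per kilobase of exon. TNFSF10 stood at 138 ± 10.6 CPM per kilobase (SD, n = 3, as for the values that follow). FADD at 26.8 ± 0.313, TNFRSF10B at 25.1 ± 0.761, TNFRSF1A at 24.3 ± 0.615 and TNFRSF10A at 19.8 ± 0.987 CPM per kilobase came next, and TNFRSF10B and TNFRSF1A overlapped between libraries. TNFRSF10D stood at 7.93 ± 0.314, FAS at 5.45 ± 0.411, CFLAR at 3.69 ± 0.0772, TNFRSF10C at 0.878 ± 0.0866 and EDA2R at 0.0978 ± 0.0741 CPM per kilobase. CFLAR has many annotated transcripts, and its 22529 exonic bases, against 1841 to 5158 for the other 9 genes, lower its level per kilobase. With THZ531 the order was another one. The decoy TNFRSF10D led at 149 ± 2.77 CPM per kilobase, ahead of TNFRSF10B at 92.7 ± 0.999 and TNFSF10 at 24.0 ± 1.69. TNFRSF10A at 8.90 ± 0.829, FAS at 7.19 ± 0.521 and CFLAR at 2.32 ± 0.105 followed. FADD at 1.83 ± 0.203, EDA2R at 1.64 ± 0.255 and TNFRSF10C at 1.59 ± 0.255 CPM per kilobase overlapped between libraries, and TNFRSF1A was the lowest at 1.12 ± 0.102.

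**Figure D1:**
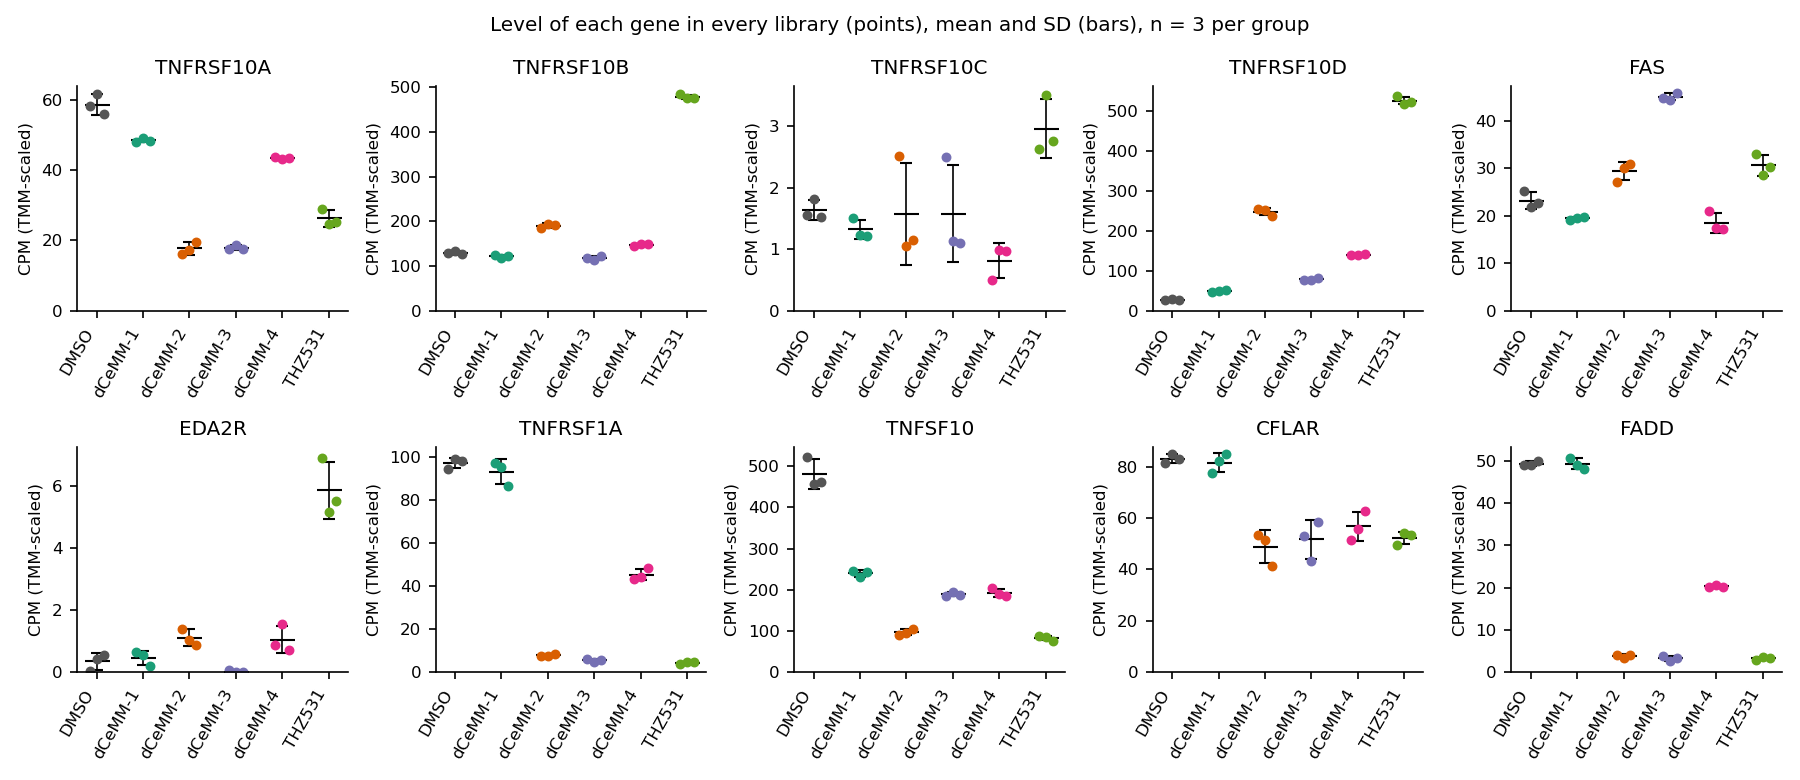
TMM-scaled CPM of each of the 10 genes (one panel each, with its own axis from 0) in the 18 libraries, grouped by treatment on the horizontal axis; points are libraries, the horizontal mark is the mean and the bar is the SD (n = 3). TNFRSF10D lies between 27.0 and 29.2 CPM in DMSO and between 519 and 538 CPM with THZ531, whereas TNFRSF1A and FADD lie near the axis with dCeMM-2, dCeMM-3 and THZ531.

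Each compound was compared with DMSO to ask which of the 10 genes it changed. With THZ531, 5 of the 10 genes rose and 5 fell (adjusted p under 0.05, edgeR's quasi-likelihood test with Benjamini-Hochberg adjustment over 15055 genes), where 35.8% of all genes tested rose and 43.7% fell. With dCeMM-4, 3 rose and 7 fell, beside 32.9% and 35.3% of all genes. With dCeMM-2, 4 rose and 5 fell, beside 37.1% and 41.2%. With dCeMM-3, 2 rose and 7 fell, beside 35.9% and 45.1%. With dCeMM-1, 1 rose and 3 fell, beside 16.5% and 14.8%. In all, 9, 9, 10 and 10 genes were called with dCeMM-2, dCeMM-3, dCeMM-4 and THZ531, where 78.3%, 81%, 68.2% and 79.5% of all genes were called, so a call in itself says little about these 10 genes with those treatments, and 4 were called with dCeMM-1 beside 31.3% of all genes. Without DMSO replicate 3, the shallowest library, the counts in each direction were as stated for each compound. On the spike-in scale 2 genes rose and 7 fell with THZ531, beside 1.32% and 84.7% of all genes. With dCeMM-4, 2 rose and 7 fell on that scale, beside 6.3% and 48%. With dCeMM-2, 1 rose and 8 fell, beside 1.48% and 83%. With dCeMM-3 none rose and 9 fell, beside 1.12% and 83.7%. With dCeMM-1, 1 rose and 1 fell, beside 2.83% and 1.34%. In all, 2, 9, 9, 9 and 9 genes were called on that scale with dCeMM-1 to dCeMM-4 and THZ531, beside 4.17%, 84.4%, 84.9%, 54.3% and 86% of all genes. The counts of genes that rose with dCeMM-2, dCeMM-4 and THZ531 include EDA2R, which entered the test only through these groups, so it had to differ and its calls are given as a description. Without it, 3, 2 and 4 of 9 genes rose, and 6 of 9 fell with dCeMM-3. The 5 comparisons share the DMSO libraries.

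**Figure D2:**
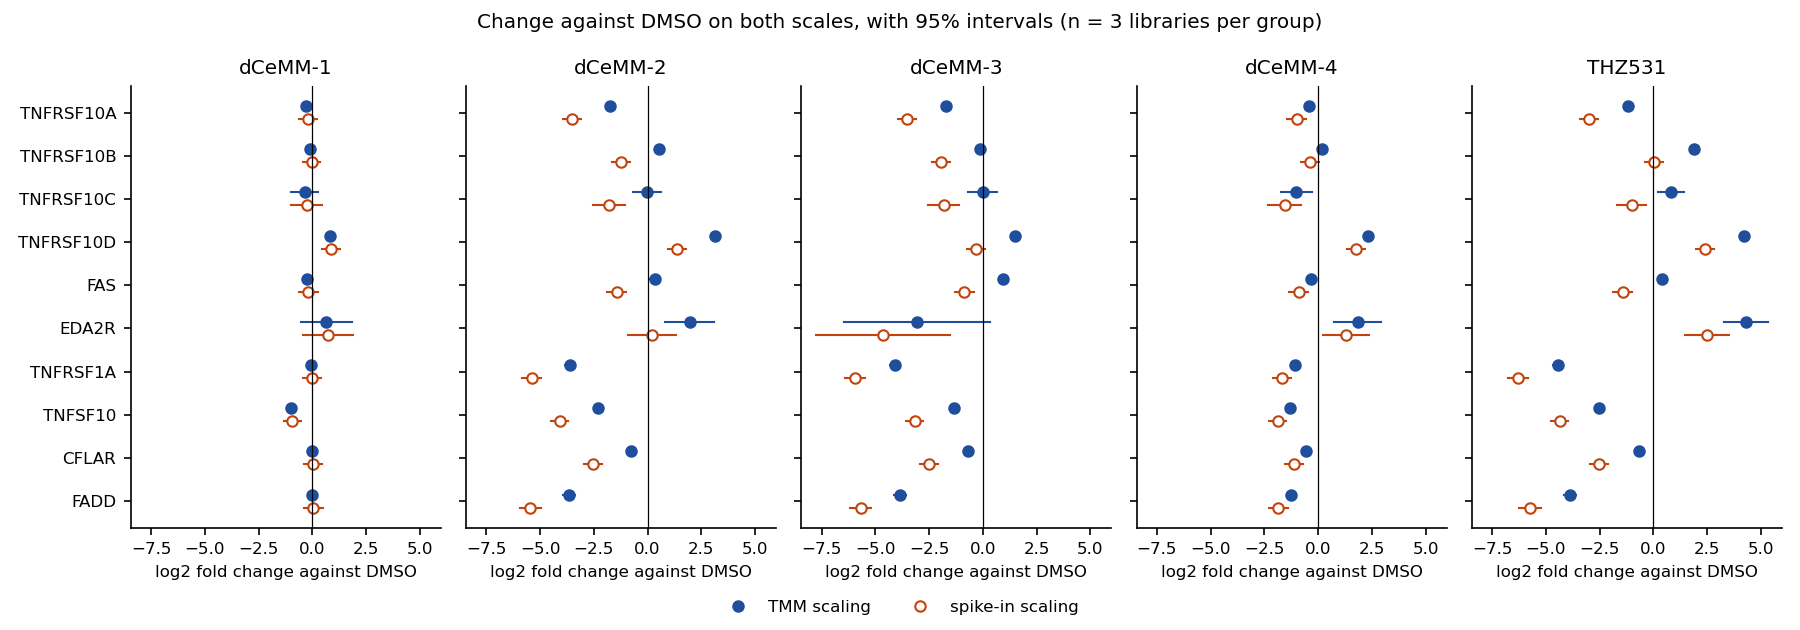
Log2 fold change against DMSO (horizontal axis) of the 10 genes (rows) with each compound (panels), by TMM scaling (filled points) and by spike-in scaling (open points), with 95% intervals from the standard error (n = 3 libraries per group). With THZ531, TNFRSF10D and EDA2R lie above 0 on both scales and TNFRSF1A, FADD and TNFSF10 lie farthest below 0, while TNFRSF10B lies at 1.88 by TMM and at 0.033 by spike-in scaling.

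TNFRSF10D, the decoy receptor with a truncated death domain, rose with every compound relative to the other genes. Its gene lies on chromosome 8 (23135588 to 23164030, minus strand, GRCh38). It stood at 27.0, 29.2 and 28.0 CPM in the 3 DMSO libraries, and at 538, 519 and 524 CPM with THZ531. With dCeMM-2 it stood at 256, 252 and 238 CPM, with dCeMM-4 at 141, 139 and 142 CPM, with dCeMM-3 at 76.7, 77.7 and 82.6 CPM, and with dCeMM-1 at 46.1, 50.7 and 52.0 CPM. No treated library overlapped a DMSO library, and no 2 treated groups overlapped. The log2 fold change was 4.23 with THZ531 (SE 0.07, edgeR adjusted p = 1.05e-34), 3.15 with dCeMM-2, 2.32 with dCeMM-4, 1.49 with dCeMM-3 and 0.82 with dCeMM-1 (SE 0.07 each, all adjusted p 2.57e-11 or lower). With THZ531, a rise of 18.8-fold, it ranked 66 from the top among 15055 genes. Against the spike-ins TNFRSF10D was still higher with THZ531 by 2.38 on the log2 scale, with dCeMM-4 by 1.75, with dCeMM-2 by 1.36 and with dCeMM-1 by 0.89. With dCeMM-3 the spike-in value was -0.33 (edgeR adjusted p = 0.144), below 0 and not called.

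TNFRSF10B, the death-domain receptor also called DR5, rose mainly with THZ531, and only by TMM scaling. It lies on chromosome 8 (23020133 to 23069179, minus strand). DMSO libraries held 129, 134 and 126 CPM and THZ531 libraries 484, 475 and 476 CPM, a rise of 3.68-fold (log2 fold change 1.88, SE 0.06, edgeR adjusted p = 1.81e-26). By spike-in scaling this difference was 0.033 (95% interval -0.37 to 0.44, edgeR adjusted p = 0.883). With dCeMM-2 it rose by 0.55 by TMM scaling (185, 195 and 191 CPM) and fell by 1.23 on the spike-in scale. With dCeMM-4 it rose by 0.18 by TMM scaling (edgeR adjusted p = 0.0069), and the spike-in value was -0.38 (adjusted p = 0.108). With dCeMM-3 it fell by 0.14 (adjusted p = 0.0353) and by 1.96 on the spike-in scale. The TMM call with dCeMM-3 was lost when DMSO replicate 2 (adjusted p = 0.0864) or dCeMM-3 replicate 2 (adjusted p = 0.0595) was left out, and with DESeq2 (-0.011, adjusted p = 0.869), and the value lay above 0 with DESeq2 size factors (0.023) and with the 2 groups fitted alone (0.087). With dCeMM-1 the difference was -0.090 (95% interval -0.21 to 0.030). RHOBTB2, on the opposite strand, shares 67 exonic bases with TNFRSF10B and had 17 to 305 counts per library, against 660 to 6033 for TNFRSF10B.

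TNFRSF10A, the other death-domain TRAIL receptor (DR4), fell with all 5 compounds by TMM scaling. It lies on chromosome 8 (23190452 to 23225126, minus strand). It stood at 58.3, 61.6 and 55.8 CPM in DMSO, at 16.1, 17.4 and 19.7 CPM with dCeMM-2, at 17.7, 18.8 and 17.5 CPM with dCeMM-3, and at 29.1, 24.6 and 25.1 CPM in the THZ531 libraries. The levels were 43.8, 43.0 and 43.3 CPM with dCeMM-4 and 48.1, 49.0 and 48.2 CPM with dCeMM-1. All treated libraries lay below all DMSO libraries. The log2 fold changes were -1.75 (SE 0.09, edgeR adjusted p = 4.81e-20), -1.71, -1.16, -0.44 and -0.28 for these groups as listed. All but the last held on the spike-in scale, where TNFRSF10A was 11.5, 11.6, 7.98 and 2.01 times lower than in DMSO, and the fall with dCeMM-1 did not pass the threshold there (-0.22, adjusted p = 0.694). An opposite-strand transcript, AC100861.1, shares 266 exonic bases with TNFRSF10A and had 25 to 124 counts per library against 154 to 1180.

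TNFRSF10C, the decoy receptor anchored by a lipid tail, was close to the limit of detection, with 8 to 40 counts per library. It lies on chromosome 8 (23102590 to 23117437, plus strand). It fell with dCeMM-4, from 1.56, 1.83 and 1.53 CPM in DMSO to 0.497, 0.985 and 0.9755 CPM (log2 fold change -1.02, SE 0.35, edgeR adjusted p = 0.00954). It rose with THZ531 to 2.63, 3.51 and 2.76 CPM (0.82, SE 0.30, adjusted p = 0.0109) by TMM scaling and fell by 1.02 on the spike-in scale. The dCeMM-4 call was lost without DMSO replicate 2 (adjusted p = 0.0557), without dCeMM-4 replicate 1 (adjusted p = 0.0648) and with DESeq2 (adjusted p = 0.0701), and that of THZ531 without THZ531 replicate 2 (adjusted p = 0.0625). With dCeMM-2 and dCeMM-3, replicate 1 held 34 and 38 counts and the other libraries 9 to 14. The group differences were -0.023 and -0.012 (edgeR adjusted p = 0.951 and 0.9747), and they were -0.63 and -0.58 without those libraries, also not called. On the spike-in scale TNFRSF10C was called lower with both, by 1.81 and 1.82 (adjusted p = 2.11e-06 and 1.18e-06), and with dCeMM-4 by 1.56. With dCeMM-1 the difference was -0.35 (95% interval -0.99 to 0.29) and was not called on either scale. The 4 TRAIL receptor genes are paralogs that neighbour each other, and reads placed at several positions were not counted for any gene.

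The make-up of TRAIL receptor mRNA within a library does not depend on the scaling between libraries. Each gene's counts per kilobase of exon were expressed as a share of the 4 genes, a measure chosen after the levels had been seen. In DMSO TNFRSF10B held 46.7% ± 0.365 of the 4 (SD, n = 3), TNFRSF10A 36.9% ± 0.548, TNFRSF10D 14.8% ± 0.400 and TNFRSF10C 1.63% ± 0.0979. With dCeMM-2 the share of TNFRSF10D was 61.6% ± 1.27, with THZ531 59.1% ± 0.139, with dCeMM-4 47.6% ± 0.404, with dCeMM-3 42.8% ± 0.978 and with dCeMM-1 25.6% ± 1.42. Every treated library held a larger share of the decoy TNFRSF10D than every DMSO library (exact permutation p = 0.1 for each compound, two-sided, the smallest possible). TNFRSF10A held 3.52% ± 0.265 with THZ531, 5.27% ± 0.622 with dCeMM-2, 11.7% ± 0.720 with dCeMM-3, 17.6% ± 0.244 with dCeMM-4 and 29.9% ± 0.421 with dCeMM-1, below DMSO in all libraries (exact p = 0.1 for each). The share of TNFRSF10B moved less, between 32.4% ± 1.03 with dCeMM-2 and 43.9% ± 0.564 with dCeMM-3 among the treated groups. The death-domain receptors TNFRSF10A and TNFRSF10B together held 83.6% ± 0.407 in DMSO, 73.1% ± 1.25 with dCeMM-1, 55.6% ± 0.243 with dCeMM-3, 51.9% ± 0.251 with dCeMM-4, 40.3% ± 0.0578 with THZ531 and 37.7% ± 1.59 with dCeMM-2. TNFRSF10D was the largest single part with dCeMM-2, dCeMM-4 and THZ531. Without scaling to length TNFRSF10D held 12.9% in DMSO and 51.0% with THZ531, and TNFRSF10A 26.9% and 2.54%. Unscaled, the largest part with dCeMM-4 was TNFRSF10B, at 44.4% against 42.3% for TNFRSF10D.

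**Figure D3:**
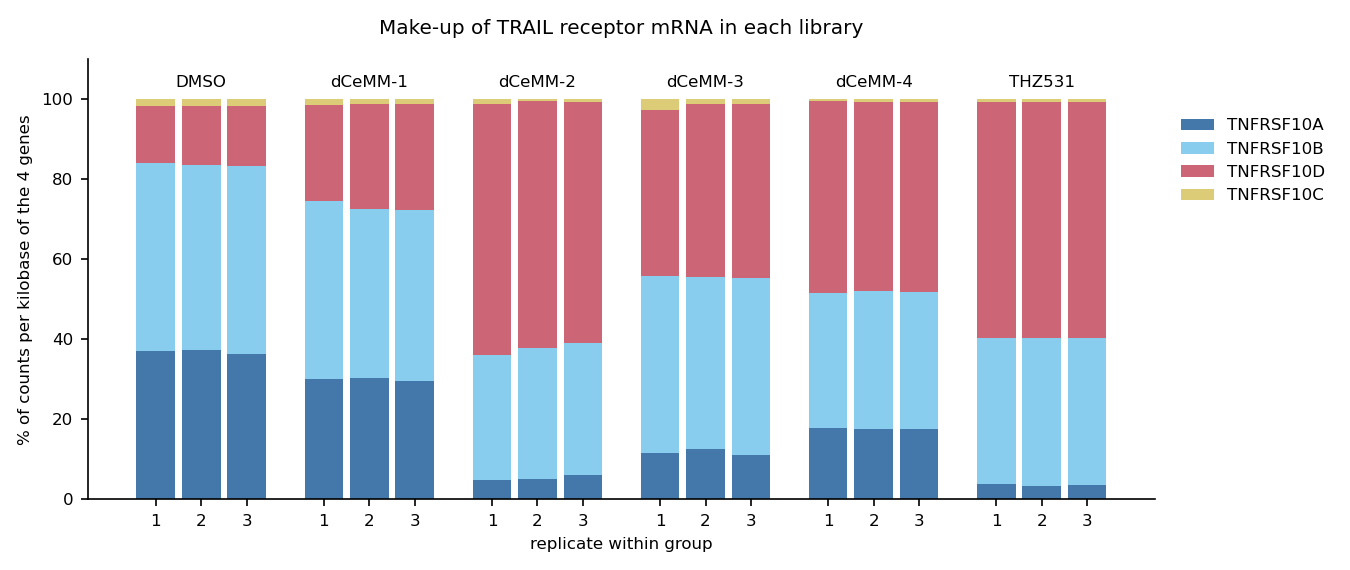
Share (vertical axis, %) of each of the 4 TRAIL receptor genes in their summed counts per kilobase of exon, in each of the 18 libraries (bars, by group and replicate). The part held by TNFRSF10D is between 14.4% and 15.2% in DMSO, between 41.7% and 43.6% with dCeMM-3 and between 60.3% and 62.8% with dCeMM-2.

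FAS, the receptor for FAS ligand, moved in both directions depending on the compound. It lies on chromosome 10 (88990582 to 89015785, plus strand). Its level was 25.2, 21.8 and 22.6 CPM in DMSO and 44.8, 44.5 and 45.8 CPM with dCeMM-3, a rise of 1.94-fold (log2 fold change 0.95, SE 0.09, edgeR adjusted p = 4.17e-12). It rose with THZ531 (32.9, 28.5 and 30.3 CPM) by 0.39 and with dCeMM-2 (27.2, 30.1 and 30.9 CPM) by 0.33. It fell by 0.33 with dCeMM-4 (21.0, 17.4 and 17.1 CPM) and by 0.26 with dCeMM-1 (19.0, 19.5 and 19.8 CPM). In each comparison the libraries of the 2 groups did not overlap. On the spike-in scale the 3 rises turned into falls, by 0.85 with dCeMM-3, 1.43 with dCeMM-2 and 1.43 with THZ531. The fall with dCeMM-4 was called there too (by 0.91), and that with dCeMM-1 was not (-0.18, adjusted p = 0.774). By TMM scaling the fall with dCeMM-1 (edgeR adjusted p = 0.0353) was also lost without a filter on low counts (0.132), without DMSO replicate 1 (0.223) and without dCeMM-1 replicate 1, 2 or 3 (0.0987, 0.0756 and 0.0709). The fall with dCeMM-4 was lost with DESeq2 size factors (adjusted p = 0.0549) and with DESeq2 (0.0839), and the rise with dCeMM-2 without a filter on low counts (0.0564). ACTA2, the smooth muscle actin gene, lies on the opposite strand and shares 380 exonic bases with FAS. Its log2 fold change was 1.35 with dCeMM-3, 1.26 with dCeMM-2 and 1.11 with THZ531, the 3 treatments with a higher FAS, and 0.028 and 0.090 with dCeMM-1 and dCeMM-4 (edgeR adjusted p = 0.864 and 0.43). Whether strand was used in counting is not given in the sources used here, and the part of ACTA2 reads in the FAS values was not tested.

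EDA2R had few reads in DMSO and more with THZ531, dCeMM-2 and dCeMM-4. The gene lies on chromosome X (66595637 to 66639298, minus strand). It had 1, 8 and 3 counts in the DMSO libraries and 84, 59 and 70 counts with THZ531. It had 19, 13 and 7 counts with dCeMM-2, 14, 27 and 12 with dCeMM-4, 10, 11 and 4 with dCeMM-1, and 1, 0 and 0 with dCeMM-3. It entered the test only through dCeMM-2, dCeMM-4 and THZ531, the groups in which it was highest, so its differences from DMSO in these groups are a description. The log2 fold change was 4.30 with THZ531 (SE 0.51, edgeR adjusted p = 4.01e-13), 1.96 with dCeMM-2 (SE 0.56, adjusted p = 0.000738) and 1.84 with dCeMM-4 (SE 0.54, adjusted p = 0.00101). These values rest on the DMSO libraries: without DMSO replicate 1 they were 3.65, 1.32 and 1.21, and without DMSO replicate 2 they were 4.94, 2.60 and 2.498, and all stayed past the threshold. With no filter on low counts, where EDA2R enters whatever its level, they were 4.21, 1.89 and 1.86 (adjusted p 0.00037 or lower). With spike-in scaling EDA2R was higher with THZ531 (2.49) and dCeMM-4 (1.30, adjusted p = 0.0264), and not called with dCeMM-2 (0.20, adjusted p = 0.738). With dCeMM-1 the difference was 0.66 (95% interval -0.54 to 1.85), and it was 0.025 without DMSO replicate 1 and 1.31 without DMSO replicate 2, not called in either case. With dCeMM-3 the 3 libraries held 1 count in all against 12 in DMSO, a rate 10.8 times lower with a 95% counting interval of 1.60 to 461. The log2 fold change with dCeMM-3 was -3.07 (SE 1.68), and its 95% interval from the standard error, -6.48 to 0.34, includes 0. This fall passed the threshold (edgeR adjusted p = 0.0113) but not without DMSO replicate 2 (adjusted p = 0.105), and the libraries overlapped. The adjusted p ran from 2.1e-06 to 0.105 over the alternatives.

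TNFRSF1A, the tumour necrosis factor receptor, and FADD, the adaptor shared by the death receptors, had the largest falls of the 10 genes with dCeMM-2, dCeMM-3 and THZ531. TNFRSF1A lies on chromosome 12 (6328757 to 6342114, minus strand) and FADD on chromosome 11 (70203163 to 70207390, plus strand). TNFRSF1A stood at 94.6, 99.2 and 98.3 CPM in DMSO and at 4.02, 4.74 and 4.73 CPM with THZ531, 21.6 times lower. It stood at 7.80, 7.68 and 8.68 CPM with dCeMM-2, at 6.05, 4.87 and 5.80 CPM with dCeMM-3, and at 43.6, 44.3 and 48.4 CPM with dCeMM-4. With dCeMM-1 it stood at 97.5, 95.7 and 86.7 CPM and overlapped DMSO. The log2 fold change was -4.43 with THZ531 (SE 0.12, edgeR adjusted p = 5.12e-30), -4.11 with dCeMM-3, -3.61 with dCeMM-2 and -1.10 with dCeMM-4, and it was -0.061 with dCeMM-1 (95% interval -0.21 to 0.086). With THZ531 the gene ranked 28 from the bottom among 15055 genes, with dCeMM-2 it ranked 65 and with dCeMM-3 102.

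FADD followed nearly the same course. It stood at 49.0, 49.0 and 50.02 CPM in DMSO, at 2.96, 3.68 and 3.47 CPM with THZ531, at 4.16, 3.48 and 4.08 CPM with dCeMM-2, and at 3.88, 2.70 and 3.42 CPM with dCeMM-3. With dCeMM-4 it stood at 20.3, 20.6 and 20.1 CPM, between the 2 sets, and with dCeMM-1 at 50.8, 49.1 and 48.1 CPM. Only the dCeMM-1 libraries overlapped DMSO. The log2 fold change was -3.87 with THZ531 (SE 0.14, edgeR adjusted p = 3.71e-27), -3.85 with dCeMM-3, -3.66 with dCeMM-2 and -1.28 with dCeMM-4. It was 0.0011 with dCeMM-1 (95% interval -0.16 to 0.16). With dCeMM-2, FADD ranked 54 from the bottom among 15055 genes. The falls of TNFRSF1A and FADD with these 4 compounds were larger on the spike-in scale, between -1.67 and -6.30 for TNFRSF1A and between -1.85 and -5.74 for FADD. Over the 18 libraries the log2 CPM of TNFRSF1A and FADD had a Pearson r of 0.99, a description of 18 points that fall into groups of treatment and share libraries and depth.

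TNFSF10, the gene of the ligand TRAIL, fell with all 5 compounds on both scales. It lies on chromosome 3 (172505508 to 172523507, minus strand). It stood at 522, 455 and 462 CPM in DMSO, at 246, 230 and 244 CPM with dCeMM-1, and at 204, 189 and 186 CPM with dCeMM-4. With dCeMM-3 it stood at 186, 195 and 188 CPM. The levels were 90.9, 96.4 and 104 CPM with dCeMM-2, and with THZ531 they were 88.5, 84.8 and 77.0 CPM. All 15 treated libraries lay below the DMSO libraries. It was the largest fall of the 10 genes with dCeMM-1, by 1.00 on the log2 scale (SE 0.07, edgeR adjusted p = 2.31e-14). The other log2 fold changes were -2.53 with THZ531 (adjusted p = 4.96e-28), -1.34 with dCeMM-3, -2.31 with dCeMM-2 and -1.31 with dCeMM-4. On the spike-in scale they were -0.93 with dCeMM-1, -4.36 with THZ531, -3.16 with dCeMM-3, -4.09 with dCeMM-2 and -1.88 with dCeMM-4. The deposited tables are from polyadenylated RNA and hold no protein or surface levels of the ligand or its receptors.

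For the 3 genes with these falls, RefSeq (GRCh38.p14) gives the bases just before the first annotated start. They are shown because TNFRSF1A and FADD moved together and TNFSF10 fell with every compound against DMSO, and the start regions can be set side by side. Letters run 5′ to 3′ on the strand of the gene, and capitals mark CpG dinucleotides.
TNFRSF1A (chr12:6342115-6342326, minus strand): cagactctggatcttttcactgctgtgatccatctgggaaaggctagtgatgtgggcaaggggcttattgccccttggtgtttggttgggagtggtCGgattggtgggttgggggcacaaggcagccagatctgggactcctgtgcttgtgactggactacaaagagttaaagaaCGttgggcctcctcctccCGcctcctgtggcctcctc
FADD (chr11:70203046-70203162, plus strand): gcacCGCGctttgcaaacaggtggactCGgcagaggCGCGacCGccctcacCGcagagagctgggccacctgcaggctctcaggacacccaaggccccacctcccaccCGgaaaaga
TNFSF10 (chr3:172523508-172523680, minus strand): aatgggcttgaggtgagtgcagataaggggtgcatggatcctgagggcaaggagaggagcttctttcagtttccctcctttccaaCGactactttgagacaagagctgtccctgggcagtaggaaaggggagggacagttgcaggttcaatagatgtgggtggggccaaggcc
The starts of TNFRSF1A and FADD are not alike in this respect. The whole 300-base RefSeq window around the start held 36 CpG dinucleotides for FADD, 4 for TNFRSF1A and 3 for TNFSF10, against a median of 14 over 35116 windows. Only part of each window is printed above, and the printed parts held 8, 3 and 1 in the same order. A GC box (GGGCGG, either strand) was found 2 times in the FADD window and not in those of TNFRSF1A and TNFSF10, where 45% of all windows hold one. A CCAAT box (CCAAT, either strand) was found in the TNFRSF1A window (34.6% of all windows). A TATA box (TATAAA, either strand) was found in the TNFSF10 window (11.5% of all windows) and not in those of TNFRSF1A and FADD. These are matches of letters and show no binding. RefSeq windows were matched for 6 of the 10 genes: CFLAR, TNFSF10, FAS, FADD, TNFRSF1A and EDA2R. One of the 3 FAS windows held a p53 half-site, as 6.63% of all windows do, and neither of the 2 EDA2R windows did.

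CFLAR, the inhibitor of caspase activation at the receptor, fell less than TNFSF10, TNFRSF1A or FADD with dCeMM-2, dCeMM-3, dCeMM-4 and THZ531. It lies on chromosome 2 (201116104 to 201176687, plus strand). Its level was 81.4, 84.9 and 83.0 CPM in DMSO. With dCeMM-2 it stood at 53.4, 51.6 and 41.5 CPM, with dCeMM-3 at 53.1, 43.4 and 58.4 CPM, with dCeMM-4 at 51.6, 55.8 and 62.9 CPM and with THZ531 at 49.6, 54.0 and 53.2 CPM. These 4 groups overlapped each other and all lay below DMSO. The log2 fold change was -0.76 (SE 0.09, edgeR adjusted p = 1.82e-09) for dCeMM-2, -0.68 for dCeMM-3, -0.67 for THZ531 and -0.55 for dCeMM-4. On the spike-in scale it was -2.54, -2.49, -2.53 and -1.11 in that order. With dCeMM-1 it stood at 77.5, 82.4 and 84.7 CPM, a difference of -0.027 (95% interval -0.20 to 0.15).

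The 3 cyclin K degraders, given at the same multiple of EC50, were compared with each other in 3 pairs. Between dCeMM-2 and dCeMM-3, 6 of the 10 genes differed, beside 43.1% of all genes. These 6 include EDA2R, which entered the test through dCeMM-2 but not dCeMM-3, so its difference is given as a description. With dCeMM-2, TNFRSF10D was 3.15 times, TNFRSF10B 1.61 times and TNFRSF1A 1.41 times as high as with dCeMM-3, and EDA2R had 39 counts against 1. FAS was 1.54 times and TNFSF10 1.95 times lower with dCeMM-2 (edgeR adjusted p between 1.28e-23 and 0.00216 for these 6 genes). The difference of TNFRSF1A did not pass on the spike-in scale (adjusted p = 0.107), and the other 5 did. The other 4 genes were not called, with log2 differences of -0.032 for TNFRSF10A (95% interval -0.23 to 0.17), -0.076 for CFLAR (-0.27 to 0.11), 0.19 for FADD (-0.15 to 0.54) and -0.012 for TNFRSF10C (-0.69 to 0.67).

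The compound dCeMM-4 stood apart from the other cyclin K degraders in TNFRSF1A and FADD. Against dCeMM-4, 9 of the 10 genes differed with dCeMM-2 and 8 with dCeMM-3, beside 77.3% and 82.7% of all genes. TNFRSF1A was 5.69 times lower with dCeMM-2 than with dCeMM-4 and 8.04 times lower with dCeMM-3, and FADD was 5.21 and 5.96 times lower. TNFRSF10A was 2.47 and 2.42 times lower, and all of these differences were larger on the spike-in scale. TNFRSF10D was 1.77 times higher with dCeMM-2 than with dCeMM-4 by TMM scaling (edgeR adjusted p = 4.13e-15), and its spike-in difference was -0.39 (adjusted p = 0.0849). It was 1.78 times lower with dCeMM-3 than with dCeMM-4 by TMM scaling and 4.23 times lower on the spike-in scale. EDA2R did not pass between dCeMM-2 and dCeMM-4 (0.12, 95% interval -0.65 to 0.88), but was lower with dCeMM-2 by 1.10 on the spike-in scale (adjusted p = 0.0111). With dCeMM-3 it had 1 count against 53 with dCeMM-4, lower on both scales (edgeR adjusted p = 7.81e-07 by TMM scaling). This is among the 8 genes that differed, and it is a description, as EDA2R entered the test through dCeMM-4 but not dCeMM-3. TNFRSF10B was 1.25 times lower with dCeMM-3 than with dCeMM-4 by TMM scaling and 2.98 times lower by spike-in scaling. It was 1.29 times higher with dCeMM-2 than with dCeMM-4 by TMM scaling and 1.80 times lower by spike-in scaling, and FAS 1.58 times higher and 1.44 times lower. FAS was 2.44 times higher with dCeMM-3 than with dCeMM-4, with a spike-in difference of 0.053 (95% interval -0.38 to 0.49). TNFSF10 did not pass between dCeMM-3 and dCeMM-4 by TMM scaling (-0.027, 95% interval -0.16 to 0.11; 2.42 times lower with dCeMM-3 by spike-in scaling) and was 1.99 times lower with dCeMM-2 than with dCeMM-4. The CFLAR difference between dCeMM-2 and dCeMM-4 (-0.21, adjusted p = 0.0405) was lost without dCeMM-2 replicate 3 (adjusted p = 0.251) or dCeMM-4 replicate 3 (0.211). Those of TNFRSF10C, higher with dCeMM-2 and dCeMM-3 by TMM scaling (0.99 and 1.00) and -0.25 and -0.27 on the spike-in scale (neither called), were lost without replicate 1 of dCeMM-2 (0.414), of dCeMM-3 (0.336) or of dCeMM-4 (0.0715 and 0.0622).

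The dose of THZ531 is not matched to those of the degraders, so the values stand side by side here. Against THZ531, 9 genes differed with dCeMM-4, 7 with dCeMM-3 and 7 with dCeMM-2, beside 79.8%, 44.7% and 30.3% of all genes. FADD stood at 3.91 ± 0.374 CPM (SD, n = 3) after dCeMM-2, 3.33 ± 0.597 after dCeMM-3 and 3.37 ± 0.374 after THZ531, with no call between them (log2 differences from THZ531 of 0.21, 95% interval -0.14 to 0.56, and 0.017, -0.33 to 0.37). After dCeMM-4 it stood at 20.3 ± 0.262 CPM, 6.03 times higher than after THZ531 (edgeR adjusted p = 5.26e-21). TNFRSF1A was 10.1 times higher with dCeMM-4 and 1.77 times higher with dCeMM-2 than with THZ531, on the spike-in scale 24.9 and 1.88 times, and was not called with dCeMM-3 (0.33, 95% interval 0.028 to 0.63, adjusted p = 0.0683). TNFSF10 was 2.27 and 2.32 times higher with dCeMM-3 and dCeMM-4, on the spike-in scale 2.30 and 5.57 times. With dCeMM-2 it was 1.16 times higher by TMM scaling (adjusted p = 0.0174), a call lost on the spike-in scale (0.532), with DESeq2 (0.136), and without dCeMM-2 replicate 3 (0.105) or THZ531 replicate 3 (0.139). CFLAR did not pass between THZ531 and any of the 3 by TMM scaling, and it was 2.68 times higher with dCeMM-4 on the spike-in scale. TNFRSF10B was 2.51 times lower with dCeMM-2, 4.05 times lower with dCeMM-3 and 3.25 times lower with dCeMM-4 than with THZ531, the last not called on the spike-in scale (adjusted p = 0.0611). TNFRSF10D was 2.12, 6.67 and 3.75 times lower in the same order by TMM scaling and 2.03, 6.55 and 1.55 times lower by spike-in scaling. EDA2R had 39, 1 and 53 counts with the 3 degraders and 213 with THZ531, and was called lower with each on both scales. It is counted among the 9, 7 and 7 genes above. It entered the test only through dCeMM-2, dCeMM-4 and THZ531, so its difference with dCeMM-3 is a description. With dCeMM-4 its difference went from 5.48 times lower by TMM to 2.28 times lower by spike-in scaling. TNFRSF10A was lower with dCeMM-2 and dCeMM-3 by 0.58 and 0.55 on the log2 scale, not called on the spike-in scale, and 1.65 times higher with dCeMM-4 (3.98 times on the spike-in scale). FAS was 1.47 times higher with dCeMM-3, also called on the spike-in scale, and 1.65 times lower with dCeMM-4 by TMM but 1.44 times higher by spike-in scaling. With dCeMM-2 the FAS difference was -0.065 (95% interval -0.25 to 0.12). TNFRSF10C was lower with all 3 degraders by TMM scaling (-0.84, -0.83 and -1.83) and called with none on the spike-in scale. The first of these calls was lost without replicate 2 or 3 of dCeMM-2 (adjusted p = 0.215 and 0.111) or THZ531 replicate 2 (0.131), and the next without replicate 2 or 3 of dCeMM-3 (0.0801 and 0.114), without THZ531 replicate 2 (0.0916) and with DESeq2 (0.0762). TNFRSF10B, TNFRSF10D and EDA2R were thus highest with THZ531 among the 6 groups by TMM scaling.

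The rest of the pathway was followed through 53 other genes, among them caspases, TRADD and RIPK1 complexes, ubiquitin-chain enzymes and further TNF family ligands and receptors. Of these, 48 were tested, and FASLG, TNF, TNFSF15, TNFRSF11B and EDAR were too low to test. With THZ531, 8 of the 48 rose and 35 fell, beside 35.8% and 43.7% of all genes, with a median log2 fold change of -0.89 against -0.095 over all genes tested. With dCeMM-3, 9 rose and 35 fell, beside 35.9% and 45.1% (median -0.89 against -0.15). With dCeMM-2, 10 rose and 35 fell, beside 37.1% and 41.2% (-0.81 against -0.023). With dCeMM-4, 10 rose and 21 fell, beside 32.9% and 35.3% (-0.24 against 0.0054). With dCeMM-1, 10 rose and 11 fell, beside 16.5% and 14.8% (-0.075 against 0.028). By spike-in scaling none rose with dCeMM-2, dCeMM-3 or THZ531, where 47, 47 and 48 fell, beside 83%, 83.7% and 84.7% of all genes. On that scale 3 rose and 36 fell with dCeMM-4, beside 6.3% and 48%. The medians of the 10 genes themselves were -0.14 with THZ531, -1.01 with dCeMM-3, -0.50 with dCeMM-4, -0.39 with dCeMM-2 and -0.076 with dCeMM-1.

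The initiator caspase CASP8, which FADD recruits, stood at 45.4 ± 2.98 CPM in DMSO. It fell by 1.96 on the log2 scale with dCeMM-3 (edgeR adjusted p = 1.56e-20), by 1.24 with THZ531 and by 0.80 with dCeMM-2. With dCeMM-4 it rose by 0.20 (adjusted p = 0.0316) by TMM scaling and was not called on the spike-in scale (-0.34). CASP10, its close relative, fell by 1.51 with THZ531, 0.95 with dCeMM-2, 0.82 with dCeMM-4 and 0.49 with dCeMM-3 and rose by 0.33 with dCeMM-1 by TMM scaling alone. These caspases and the following genes are all from the 53, and CASP8 and CASP10 were named after their values were seen.

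RIPK1, the kinase that TNFRSF1A engages, was among the largest falls with dCeMM-3 (-2.67, SE 0.12), dCeMM-2 (-2.43) and THZ531 (-2.14). MLKL, which carries out necroptosis, fell from 12.6 ± 0.955 CPM to 1.49 ± 0.381 CPM with THZ531 (-3.09), by 2.44 with dCeMM-3 and by 2.25 with dCeMM-2. Among the 4 largest falls with these compounds were also RNF31, a subunit of the linear ubiquitin chain complex (-2.08 with dCeMM-2), DAXX (-3.56) and TNFRSF12A (-2.01) with dCeMM-3, and TNFRSF1B, the other TNF receptor (-2.36), and TAB1 (-2.19) with THZ531. With dCeMM-4 they were TAB1 (-2.80), LTA (-2.59), RIPK3 (-1.98) and LTBR (-1.85). Each fell further on the spike-in scale.

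The rises were smaller than that of TNFRSF10D in each comparison except that with dCeMM-1, where NGFR rose by 1.11, and dCeMM-3, where it rose by 1.68. NGFR, the low-affinity neurotrophin receptor, rose by TMM scaling with all 5 compounds, from 2.30 ± 0.973 CPM to at most 8.77 ± 1.59 CPM with dCeMM-4 (1.79, SE 0.20, edgeR adjusted p = 1.09e-10). Against the spike-ins NGFR was higher with dCeMM-1 and dCeMM-4, not called with dCeMM-2 and dCeMM-3, and lower with THZ531. RBCK1, another subunit of the linear ubiquitin chain complex, rose by 1.18 with dCeMM-2 and 1.17 with dCeMM-3, and fell on the spike-in scale. EDA, which encodes the ligand of EDA2R, rose by 1.42 with dCeMM-4, on both scales, and by 1.16 and 0.94 with dCeMM-2 and THZ531 by TMM scaling alone, with a fall on the spike-in scale. OTULIN, which removes linear ubiquitin chains, rose with dCeMM-4 by 1.26 on the TMM scale and 0.68 on the spike-in scale. With dCeMM-1, TNFRSF25 rose by 0.75, TRAF1 by 0.74 and APAF1, the apoptosome scaffold, by 0.65, and LTA, LTB, DAXX and MAP3K5 fell by 1.39, 1.07, 0.61 and 0.56. With spike-in scaling, TNFRSF25, LTB, DAXX and MAP3K5 were not called with dCeMM-1.

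**Figure D4:**
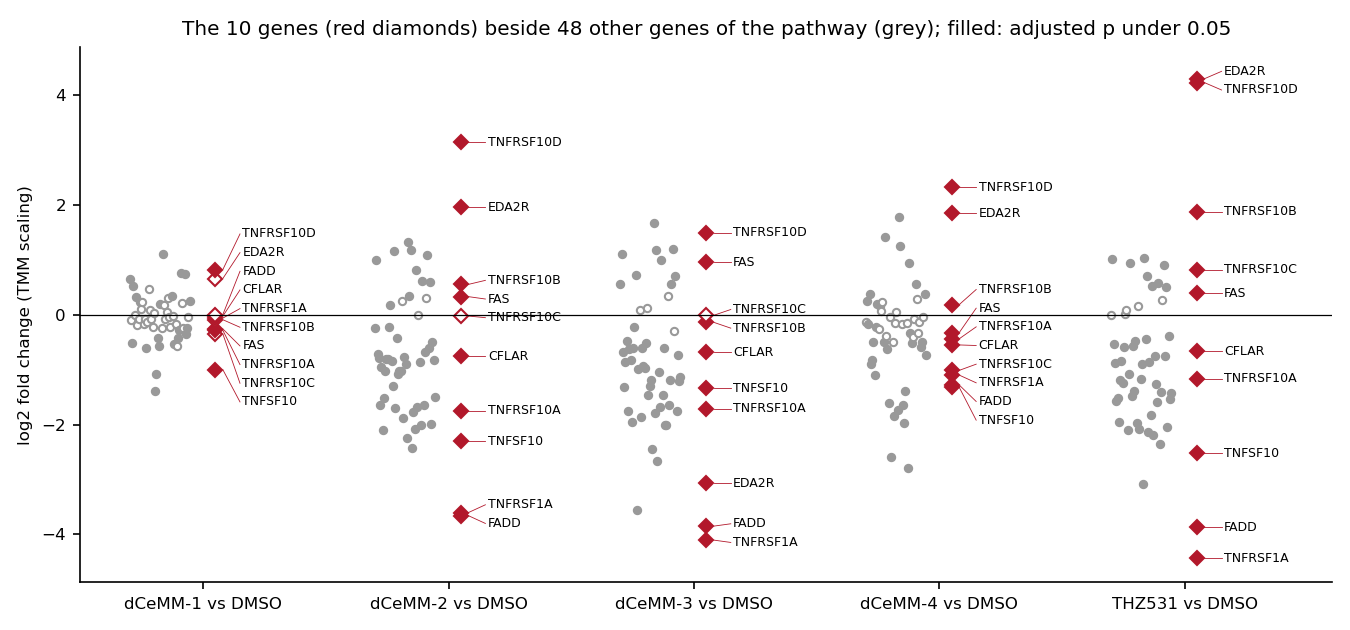
Log2 fold change against DMSO by TMM scaling (vertical axis) for the 10 genes (red diamonds, named) and the 48 other pathway genes tested (grey circles), for each compound (horizontal axis); filled symbols have an adjusted p under 0.05. TNFRSF1A and FADD lie below the 48 other genes with dCeMM-2, dCeMM-3 and THZ531, and TNFRSF10D lies above them with dCeMM-2, dCeMM-4 and THZ531.

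For each of the 10 genes, the protein-coding genes most like it in log2 CPM over the 18 libraries were sought among 12322 tested genes. RUNDC1, ZC3H4 and RIC8A were the most like FADD (Pearson r = 0.997, 0.995 and 0.995), and ZFP64, PPP2R2D and ZC3H4 the most like TNFRSF1A (0.996, 0.996 and 0.995). LRBA, MT1M and HMGN3 were the most like TNFRSF10D (0.981, 0.976 and 0.973), and NCAPH, ZC3H18 and TRIP12 the most like TNFRSF10A (0.986, 0.986 and 0.985). For TNFSF10 they were XPO7, ANKRD27 and SLC27A2 (0.971, 0.967 and 0.966), for CFLAR RIOX1, TMEM168 and ZNF566 (0.970, 0.969 and 0.966), and for FAS CEBPZOS, FCGR2A and MCFD2 (0.967, 0.966 and 0.964). TNFRSF10B had lower values, with ABCA1, TXNIP and TNIK at 0.936, 0.890 and 0.881, and EDA2R had ISCU, TXNIP and FDXR at 0.935, 0.935 and 0.929. TNFRSF10C, the gene with the fewest counts apart from EDA2R, had MCOLN2, MLC1 and NADSYN1 at 0.827, 0.808 and 0.801. Points of 1 group share a treatment, so these values describe the 6 groups more than 18 separate points. Among the 10 genes, TNFRSF10D and TNFSF10 ran opposite to each other, with r = -0.96. Besides TNFRSF1A and FADD, TNFRSF10A ran together with FADD (r = 0.94) and TNFRSF1A (0.91), and CFLAR with FADD (0.88). TNFRSF10B and EDA2R also ran together, with r = 0.87, where EDA2R entered the test only through groups in which it was high.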

How the data were processed

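Polyadenylated RNA from 18 KBM7 libraries was sequenced, and the authors deposited raw read counts per gene in 1 table per library, with no normalization. Per the submitters' processing notes, HTSeq 0.11.2, Picard, STAR 2.5.2b and Trimmomatic 0.32 were used with the build GRCh38.p7. The strand setting and the amount of spike-in RNA per cell or per amount of RNA are not given in the sources used here.

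Symbols, positions and exon lengths came from GENCODE 29. HTSeq summary rows were left out. Counts were analysed with edgeR 4.0.16, limma 3.58.1 and R 4.3.3. Genes passed filterByExpr by group (minimum count 10, which comes to 0.692 CPM), which left 15055, and all 10 genes passed. EDA2R did so only through 3 groups. TMM factors came from the endogenous genes only, and 1 quasi-likelihood model (robust, no replicate block) was fitted to all 18 libraries. P-values were adjusted by Benjamini-Hochberg over all 15055 genes within a comparison, with a threshold of 0.05. Standard errors combine the fit's information with the quasi-likelihood dispersion. The second scale used the summed counts of 99 ERCC and SIRV sequences as library sizes. Intervals for single counts cover counting error only. The code was tested on simulated counts in which a small set of genes changed in a single group, evenly in both directions. That test did not cover a shift of most genes in the same direction.

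The 10 genes, the lists and the comparisons were chosen with earlier results of these data known. Other pathway genes are named by size: in each comparison up to 4 rises and 4 falls with the largest log2 fold change among called genes whose groups do not overlap and whose higher mean is at least 1 CPM. One gene that this rule names is not reported here. The p53 target list was treated in the same way with up to 2 each way. Genes most like a given gene are the 3 protein-coding genes with the highest Pearson r of log2 CPM (prior count 2). Alternatives were DESeq2 1.42.0, its size factors in edgeR, spike-in scaling, other filters, a replicate block, fits of the 2 groups alone and leaving out each library. TRAIL receptor shares were added after the data were seen.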

Additional observations from a re-analysis of the deposited data

How the results depend on the processing

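Spike-in scaling moved the counts most. With dCeMM-1 it left 2 of the 10 genes called, 4 of the other pathway genes, 2 of the p53 targets and 628 of all genes, and between dCeMM-2 and THZ531 it left 4 of the 10 genes called. It also turned the direction of these log2 fold changes. Against DMSO, they were CFLAR with dCeMM-1 (0.034), TNFRSF10B with dCeMM-2 (-1.23) and dCeMM-4 (-0.38), FAS with dCeMM-2 (-1.43), dCeMM-3 (-0.85) and THZ531 (-1.43), TNFRSF10D with dCeMM-3 (-0.33) and TNFRSF10C with THZ531 (-1.02). Between dCeMM-2 and dCeMM-3 they were TNFRSF10A (0.015) and TNFRSF10C (0.016). Between dCeMM-2 and dCeMM-4 they were TNFRSF10B (-0.85), TNFRSF10C (-0.25), TNFRSF10D (-0.39), FAS (-0.53) and EDA2R (-1.10), and between dCeMM-3 and dCeMM-4 TNFRSF10C (-0.27). Against THZ531 they were CFLAR with dCeMM-3 (0.039) and FAS with dCeMM-4 (0.53). Only values near 0 were turned by DESeq2 size factors, fits of the 2 groups alone and DESeq2. The called fall of TNFRSF10B with dCeMM-3 (-0.14, edgeR adjusted p = 0.0353 by TMM scaling) was among those values. With the size factors these were FADD with dCeMM-1 (-0.030), TNFRSF10C with dCeMM-2 (0.054) and dCeMM-3 (0.14), TNFRSF10B with dCeMM-3 (0.023), and TNFSF10 between dCeMM-3 and dCeMM-4 (0.011). With the 2 groups alone they were FADD with dCeMM-1 (-0.022), TNFRSF10C with dCeMM-2 (0.075) and dCeMM-3 (0.20), TNFRSF10B with dCeMM-3 (0.087), TNFSF10 between dCeMM-3 and dCeMM-4 (0.038) and CFLAR between dCeMM-3 and THZ531 (0.012). With DESeq2 they were FADD with dCeMM-1 (-0.022) and TNFRSF10C with dCeMM-2 (0.015) and dCeMM-3 (0.092). Without a filter on low counts TNFRSF10C between dCeMM-2 and dCeMM-3 was 0.012. Leaving out the scaling to length moved the TRAIL receptor shares themselves, and for TNFRSF10B it changed which of dCeMM-1 and dCeMM-3 lay farther from DMSO: 43.2% and 43.9% with scaling, 55.1% and 54.5% without. The cause was not tested.

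Leaving out 1 library at a time turned the direction of values near 0. These ranged from -0.054 to 0.0079 for CFLAR and from -0.019 to 0.020 for FADD with dCeMM-1, and from -0.63 to 0.23 and -0.58 to 0.19 for TNFRSF10C with dCeMM-2 and dCeMM-3. Between dCeMM-2 and dCeMM-3 they ranged from -0.17 to 0.028 for CFLAR, -0.088 to 0.039 for TNFRSF10A and -0.60 to 0.55 for TNFRSF10C. They ranged from -0.12 to 0.51 for EDA2R between dCeMM-2 and dCeMM-4, and from -0.075 to 0.0096 for TNFSF10 between dCeMM-3 and dCeMM-4. Against THZ531 they ranged from -0.16 to 0.011 for CFLAR with dCeMM-2, and from -0.11 to 0.087 for CFLAR and -0.12 to 0.12 for FADD with dCeMM-3. None of these was called. The counts of the 10 genes called stayed between 3 and 4 with dCeMM-1, at 9 with dCeMM-2, between 7 and 9 with dCeMM-3, and between 9 and 10 with dCeMM-4 and with THZ531.

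The replicate numbers showed no clear pairing of the libraries, and with 3 libraries per group this check cannot exclude pairing. Same-numbered libraries of different groups had correlations of their deviations between -0.14 and 0.12, and 1 of 45 pairs was over 0.1. Differently numbered pairs lay between -0.12 and 0.10, with 1 of 90 over 0.1. In all, 9 of 18 libraries correlated best with their own number. A replicate block left the counts of called genes as they were (4, 9, 9, 10 and 10 for dCeMM-1 to dCeMM-4 and THZ531) and turned TNFRSF10C with dCeMM-3 to 0.0033. Depth limits TNFRSF10C and EDA2R, with 8 to 40 and 0 to 84 counts per library. THZ531 replicate 1 differed from replicates 2 and 3 (chi-square per degree of freedom 17.2 and 18.9) more than those from each other (1.43, above sampling noise). Replicates differed in the other groups too. The largest values were 14.7 in dCeMM-3, 14.4 in dCeMM-4, 13.6 in dCeMM-2, 8.10 in DMSO and 5.30 in dCeMM-1.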

Other observations

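A list of 23 other p53 target genes was set beside TNFRSF10B, FAS and EDA2R, which are known p53 targets too. By TMM scaling 13 of the 23 rose and 4 fell with THZ531, 12 rose and 9 fell with dCeMM-2, 10 rose and 4 fell with dCeMM-4, 6 rose and 12 fell with dCeMM-3, and 6 rose and 3 fell with dCeMM-1 (edgeR's quasi-likelihood test with Benjamini-Hochberg adjustment over all genes tested). In the same order 35.8%, 37.1%, 32.9%, 35.9% and 16.5% of all genes rose and 43.7%, 41.2%, 35.3%, 45.1% and 14.8% fell. The medians of their log2 fold changes were 0.74, 0.59, 0.22, -0.41 and 0.13, where those of all genes were -0.095, -0.023, 0.0054, -0.15 and 0.028. On the spike-in scale 3 rose and 15 fell with THZ531, 3 rose and 17 fell with dCeMM-2, 7 rose and 9 fell with dCeMM-4, and 1 rose and 21 fell with dCeMM-3, where 1.32%, 1.48%, 6.3% and 1.12% of all genes rose and 84.7%, 83%, 48% and 83.7% fell. CDKN1A, the cell cycle inhibitor p21, rose by 4.71 with THZ531 and by 4.09 with dCeMM-2, and by 2.86 and 2.30 on the spike-in scale. PLK2 rose by 4.17 with dCeMM-2, 3.48 with THZ531 and 2.53 with dCeMM-4, also on the spike-in scale, and SESN2 rose by 2.47 with dCeMM-4 (1.89 on the spike-in scale). The largest falls were XPC (-1.30) and AEN (-1.24) with dCeMM-2, BAX (-1.61) and XPC (-1.13) with dCeMM-4, and AEN (-1.55) and PLK3 (-0.99) with THZ531, and each was larger on the spike-in scale. With dCeMM-3, the compound with 1 EDA2R count in 3 libraries, PMAIP1 (NOXA) rose by 2.28 and, on the spike-in scale, by 0.50, GDF15 rose by 1.65 by TMM scaling alone, and AEN and PLK3 fell by 3.35 and 2.17. With dCeMM-1, TP53INP1 and RRM2B rose by 0.77 and 0.66, on both scales, and AEN and XPC fell by 0.60 and 0.35 by TMM scaling alone.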
